A study of Mus musculus with 2 samples.

Results

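The proteasome subunit genes are the GENCODE M21 protein-coding genes whose symbol begins with Psma, Psmb, Psmc, Psmd, Psme, Psmf or Psmg followed by a number. There were 50 such genes among 21938 protein-coding genes. One of the 50, Psmc3ip, matched by its name only and does not encode a proteasome subunit, so 49 were proteasome genes proper. The tissue was right cerebral cortex from male mice aged 2 months of the hybrid B6CASTF1/J, whose parents were C57BL/6J and CAST/EiJ. DNase-seq was used, in which the nuclease DNase I cuts accessible DNA in nuclei and the cut sites are sequenced. There was 1 group of 2 libraries, replicate 1 from the animal numbered 5 and replicate 2 from the animal numbered 6, with no other treatment or allele in the labels. The labels give both libraries the same donor record, so their separate origin rests on the animal numbers. With a single group no condition was contrasted, and each value is given per library.

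The proteasome is the barrel-shaped protease that degrades ubiquitin-tagged proteins in the cytosol and nucleus. Its core is a stack of alpha-subunit rings, which gate the entrance, around beta-subunit rings, some of which carry the peptide-cutting sites. The regulatory particle caps the barrel: its base holds ATPases that unfold the substrate and its lid removes ubiquitin. Interferon-inducible beta subunits replace the constitutive cutting subunits in the immunoproteasome, and neurons are known to use mainly the constitutive form. Genes of the constitutive particle are known as housekeeping genes, and in mammalian cells the factor NFE2L1 raises many of them together when proteasome activity drops.

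A DNase I peak was present at a promoter of 47 of the 50 genes (94.0%) in each library, against 63.4% of all protein-coding genes in replicate 1 and 59.3% in replicate 2. The same 47 had one in both libraries, against 58.7% of all protein-coding genes. The 47 were all 14 core genes, all 17 regulatory-particle genes, all 10 genes of assembly factors, other activators and the inhibitor, Psmc3ip, and 5 of the 8 genes of the immune or testis class. Psma8, Psmb11 and Psme2b, all of the immune or testis class, had none in either library. A promoter peak is a peak of the stricter deposited set within 1000 bp of any annotated transcript start of the gene. In comparison sets picked by gene symbol, 80 of 83 cytosolic ribosomal protein genes and 78 of 84 oxidative phosphorylation genes had a promoter peak in each library. Members of these sets were not screened for restriction to some tissues.

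Peak height, on the authors' scale, had a median over the 47 genes with a peak of 4.02 in replicate 1 and 2.65 in replicate 2, against 3.02 and 2.17 over all protein-coding genes with a promoter peak. Where a gene had several promoter peaks the tallest was used. All 47 genes were taller in replicate 1. Among the 46 genes whose tallest peaks overlapped, the median ratio of replicate 1 to replicate 2 was 1.54 (range 1.04 to 2.13). Chosen in the same way, all protein-coding genes had a median ratio of 1.49. What the height counts is not stated and the depth is not known, so heights are also given as percentiles. The percentile of a height is its rank among the tallest promoter peaks of all protein-coding genes of the same library, and a gene with no promoter peak counts as 0. The median percentile was 67.6 ± 2.84 in the core class, 67.2 ± 1.62 in the regulatory class, 60.2 ± 2.49 in the assembly and activator class and 27.3 ± 3.36 in the immune or testis class (mean ± SD of the 2 libraries' medians, n = 2), against 18.5 ± 3.87 over all protein-coding genes. It was 77.3 ± 1.52 for the ribosomal protein genes and 68.4 ± 0.40 for the oxidative phosphorylation genes. Because genes without a peak count as 0, these medians reflect the presence of a peak as well as its height. Over the 5 immune or testis genes with a peak alone, the median percentile was 57.0 in replicate 1 and 38.6 in replicate 2. Their median height was 3.44 and 1.74. That lay above the median of all protein-coding genes with a promoter peak in replicate 1 and below it in replicate 2. In bulk tissue, a peak present in few cells and a weaker peak in many cells cannot be told apart.

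**Figure D1:**
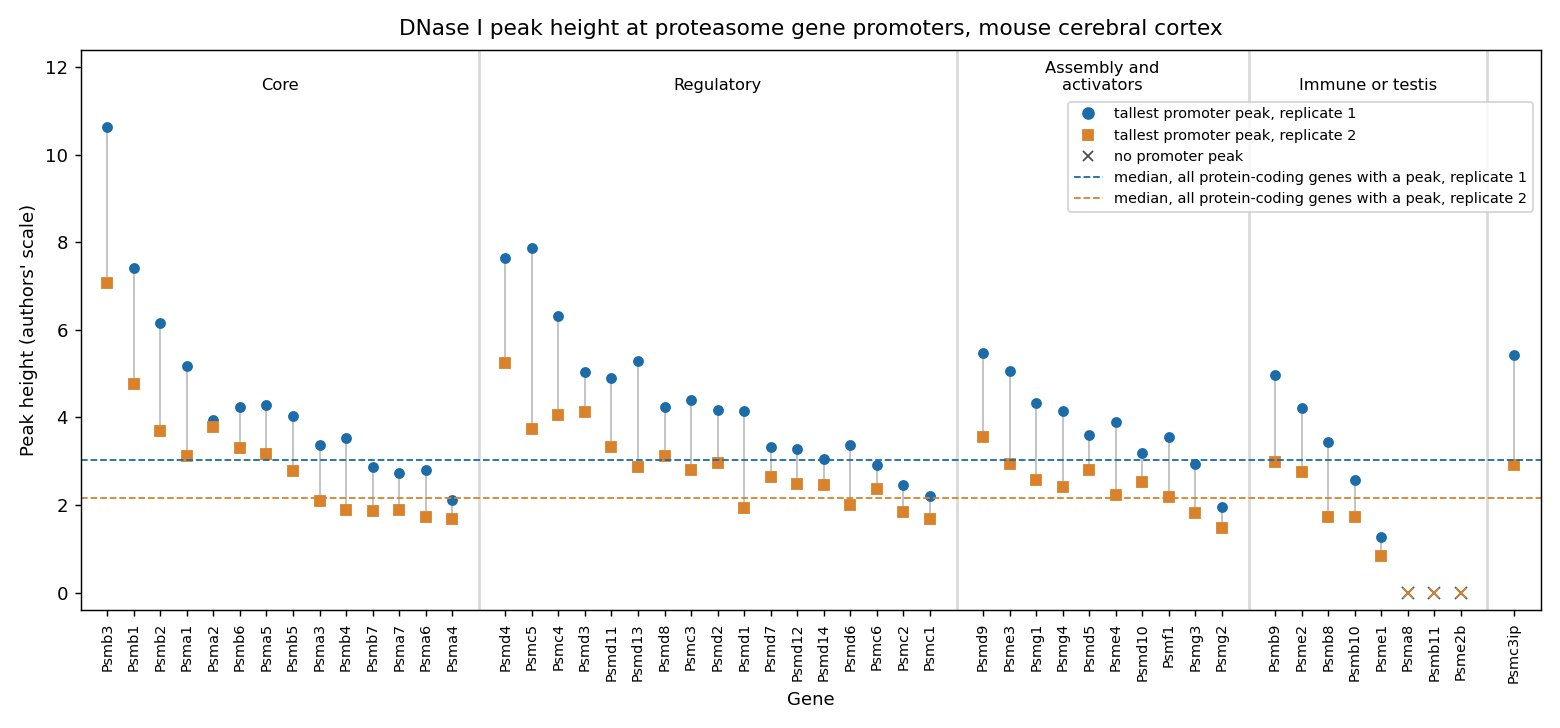
Height of the tallest promoter peak (authors' scale) of each of the 50 genes, by class, in replicate 1 (circles) and replicate 2 (squares). Dashed lines are the medians of all protein-coding genes with a promoter peak (3.02 and 2.17), crosses mark the 3 genes with no peak, and Psmb3 stands above all others at 10.6 and 7.08.

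Among the core genes, the median promoter was higher in the beta subunits, though the groups overlapped. The median percentile of the beta subunits was 69.6 in replicate 1 and 77.2 in replicate 2, and that of the alpha subunits was 55.6 and 47.8. Psmb3, a structural beta subunit, had the tallest promoter of all 50 genes, with heights of 10.6 and 7.08 at percentiles of 99.8 in both libraries. Its peak was centred at -69 bp from the start (negative values are upstream) and ran over the same 220 bp in both libraries. A further Psmb3 peak, centred at -849 bp, had heights of 3.14 and 2.26. Psmb1, another non-cutting beta subunit, followed with 7.41 and 4.76, in a peak shared with the neighbouring gene Tbp. A peak at another annotated Psmb1 start had 4.69 and 2.93. Psmb2, likewise non-cutting, had 6.16 and 3.70, and Psmb4, also non-cutting, had 3.54 and 1.88. Of the genes for the cutting subunits, Psmb6 had 4.25 and 3.31, Psmb5 had 4.02 and 2.79, and Psmb7 had 2.88 and 1.87. The non-cutting and cutting subunits thus overlapped in height, Psmb4 lying below Psmb5 and Psmb6 in both libraries. The lowest alpha subunit was Psma4 in both libraries, at 2.12 and 1.68, and the highest was Psma1 in replicate 1, at 5.18, and Psma2 in replicate 2, at 3.79. Psma4 was among the 5 lowest of the genes with a peak, at percentiles of 34.2 and 37.0.

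The Psmb3 sequence is shown because it is the tallest promoter, and those of Psmb5 and Psmb6 because a word of the kind bound by NFE2L1 lay in a footprint there in both libraries. A footprint is a stretch of bases inside accessible DNA that was cut less than its surroundings, as called by the authors. Each sequence is the promoter peak of replicate 1, read from the RefSeq copy of GRCm38.p6 (mm10) on the strand of the gene, and ends at most 50 bases after the start. It is the C57BL/6J sequence, and the CAST/EiJ copy that these mice also carry may differ. Capitals mark each consensus word that lay in a footprint, extended by 5 bp on each side, in both libraries. Psmb3 lies at chr11:97703221-97703440 on the plus strand, and its capitals mark an interferon regulatory factor (IRF) type word at -123 bp and the CCAAT boxes at -48 bp and -6 bp. Psmb5 lies at chr14:54617973-54618140 on the minus strand, with an antioxidant response element (ARE) type word at -16 bp. Psmb6 lies at chr11:70525261-70525416 on the plus strand, with an ARE-type word at -15 bp.
Psmb3: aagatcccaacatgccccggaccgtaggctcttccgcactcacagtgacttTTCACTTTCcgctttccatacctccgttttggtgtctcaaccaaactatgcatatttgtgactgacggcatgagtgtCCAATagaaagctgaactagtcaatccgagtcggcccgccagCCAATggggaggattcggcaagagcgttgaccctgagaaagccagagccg
Psmb5: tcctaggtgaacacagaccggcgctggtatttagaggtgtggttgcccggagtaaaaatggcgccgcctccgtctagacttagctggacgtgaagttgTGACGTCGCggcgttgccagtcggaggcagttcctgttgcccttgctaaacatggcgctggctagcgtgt
Psmb6: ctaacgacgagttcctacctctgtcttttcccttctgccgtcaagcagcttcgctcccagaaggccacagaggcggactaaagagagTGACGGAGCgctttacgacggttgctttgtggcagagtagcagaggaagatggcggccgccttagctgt

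In the regulatory particle, 14 of 17 genes in replicate 1 and 13 of 17 in replicate 2 were above the 50th percentile, against 31.7% and 29.7% of all protein-coding genes, those without a peak included. The counts were 10 and 8 of 14 for the core, 8 and 8 of 10 for assembly factors and activators, and 3 and 2 of 8 for the immune or testis class. Psmd4, the ubiquitin receptor of the base, had heights of 7.65 and 5.24 at percentiles of 96.8 and 97.0. Psmb3, Psmd4 and Psmb1 were the 3 genes above the 90th percentile in both libraries. The Psmb1 peak was centred 18 bp from the start of the neighbouring gene Tbp and cannot be assigned to either gene. Among the base ATPases, Psmc5 had 7.86 and 3.73 and Psmc4 had 6.31 and 4.05. The ATPase genes with the lowest promoters were Psmc2, at 2.45 and 1.84, and Psmc1, at 2.22 and 1.67. Psmd2, the large scaffold subunit of the base, had 4.17 and 2.96. Psmd1, the other scaffold subunit, had 4.14 and 1.94, the largest ratio between the libraries among the 47 genes. The 8 lid genes lay between 3.05 and 5.29 in replicate 1 and between 2.00 and 4.12 in replicate 2, a narrower range than that of the ATPase genes, which lay between 2.22 and 7.86 in replicate 1 and between 1.67 and 4.05 in replicate 2. Psmd14, the deubiquitinating enzyme of the lid, had the lowest height of the lid in replicate 1 (3.05), and Psmd6 had the lowest in replicate 2 (2.00).

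**Figure D2:**
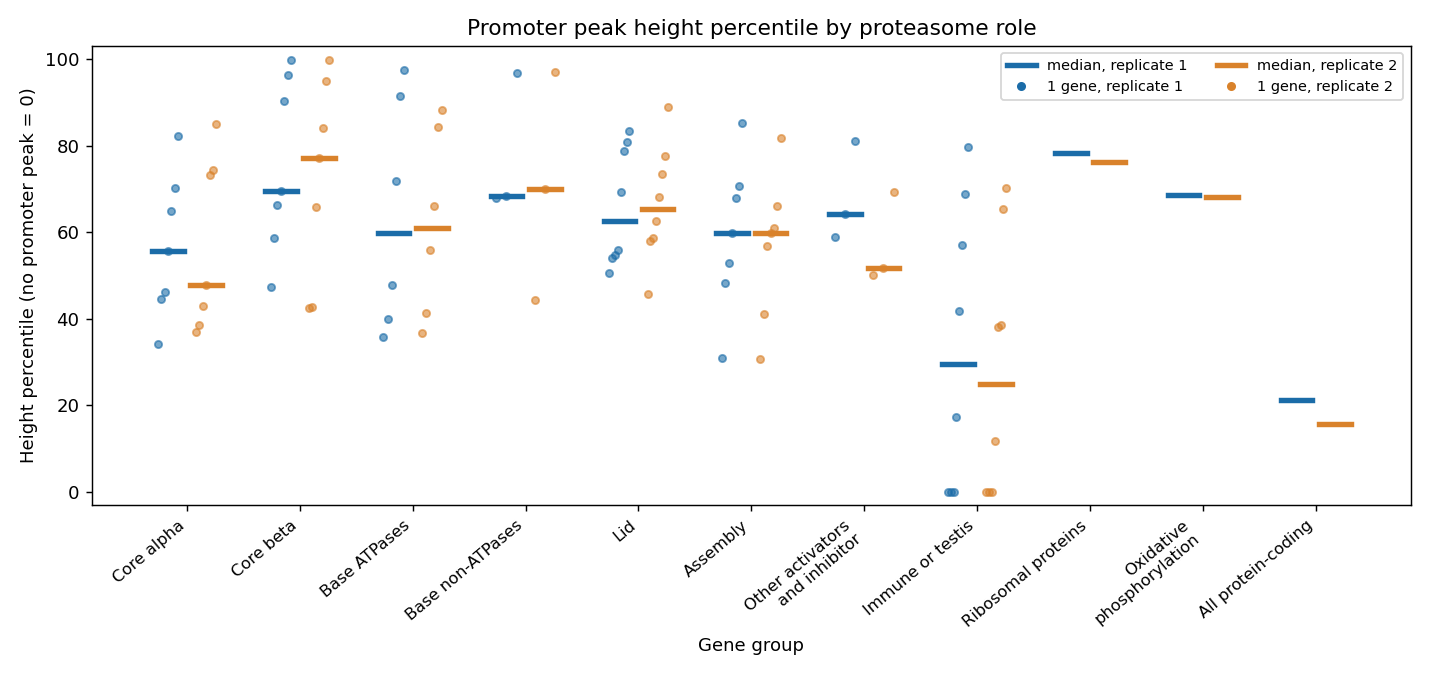
Percentile of promoter peak height (vertical axis, 0 to 100, with no peak as 0) by role, with points for single genes and bars for medians in replicate 1 and replicate 2. The core beta medians (69.6 and 77.2) lie above the core alpha medians (55.6 and 47.8), the immune or testis medians are 29.6 and 24.9, and all protein-coding genes have medians of 21.2 and 15.7.

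Sequence at the regulatory promoters shared a word that the core promoters mostly lacked. The word CCGGAAG, the consensus of the ETS factor family, occurred within 300 bp centred on the tallest promoter peak in 12 of 17 regulatory genes (70.6%) in each library, in 2 of 14 core genes (14.3%), in 4 of 10 assembly and activator genes and in 2 of 5 immune genes with a peak. Over all 47 genes the share was 44.7% in each library, against 18.0% in replicate 1 and 19.4% in replicate 2 of all protein-coding genes with a promoter peak. Without Psmc3ip it was 20 of 46 genes (43.5%). The ribosomal protein genes came to 42.5% and the oxidative phosphorylation genes to 25.6%. Of the 2 immune genes with the word, Psme2 had its window centred on a peak near the start of the neighbouring gene Rnf31. All words were searched as exact letters on both strands, and words could overlap one another. In windows from 250 bp before to 50 bp after the annotated 5-prime end, the ETS word was in 10 of the 17 regulatory genes, in 0 of the 14 core genes and in 31.9% of the 47 genes, against 15.4% and 16.2% of all protein-coding genes with a promoter peak.

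The ETS words at Psmd14, Psmc6 and Psmd2 lay in footprints of both libraries, close to the start, and Psmd4 is shown as the regulatory promoter with the highest mean percentile over the libraries, although Psmc5 was taller in replicate 1. Capitals are as above. Psmd14 lies at chr2:61711621-61711791 on the plus strand, with its ETS word at 2 bp. Psmc6, a base ATPase gene, lies at chr14:45329681-45329837 on the plus strand, with its ETS word at -61 bp next to a GGGCGG word, the consensus of the SP and KLF families, and further such words at -5 bp and 7 bp. Psmd2 lies at chr16:20651561-20651701 on the plus strand, with its ETS word at -23 bp and a GGGCGG word at -49 bp. Psmd4 lies at chr3:95042565-95042760 on the minus strand, with a CCAAT box at 22 bp.
Psmd14: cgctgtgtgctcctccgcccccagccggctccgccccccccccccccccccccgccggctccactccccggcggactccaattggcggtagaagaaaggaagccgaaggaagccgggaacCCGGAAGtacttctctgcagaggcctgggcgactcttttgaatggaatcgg
Psmc6: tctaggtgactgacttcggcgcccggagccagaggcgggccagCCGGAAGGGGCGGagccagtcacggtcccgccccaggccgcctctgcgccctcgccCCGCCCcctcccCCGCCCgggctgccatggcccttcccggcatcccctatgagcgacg
Psmd2: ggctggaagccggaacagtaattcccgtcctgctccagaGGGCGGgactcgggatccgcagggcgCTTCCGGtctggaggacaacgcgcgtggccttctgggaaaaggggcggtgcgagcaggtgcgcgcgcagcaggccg
Psmd4: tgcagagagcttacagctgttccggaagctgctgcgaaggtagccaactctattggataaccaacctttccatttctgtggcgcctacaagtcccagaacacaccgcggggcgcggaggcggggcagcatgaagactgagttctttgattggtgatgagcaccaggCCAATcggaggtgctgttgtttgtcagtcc

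An ETS word lay in a footprint at the same place in both libraries at 9 of the 47 genes (19.1%), against 7.40% of all protein-coding genes with a promoter peak in both libraries. Without Psmc3ip it was 8 of 46 genes (17.4%). The ribosomal protein genes came to 15.0%, near that share, and the oxidative phosphorylation genes to 8.97%. The 9 genes were Psmd14, Psmd7, Psmc6 and Psmd2 of the regulatory particle, Psma6 of the core, the activators Psme3 and Psme4, the immune gene Psme2 and Psmc3ip. These genes are named for the word and not by their heights. The Psme2 word was at -431 bp, in a peak near the start of the neighbouring gene Rnf31, and cannot be assigned to either gene. The GGGCGG word was in a footprint of both libraries at 22 genes (46.8%, against 46.0% of all protein-coding genes), a share near that of genes in general. The CCAAT word of the factor NF-Y was in such a footprint at 7 genes (14.9%, against 12.5%). The IRF-type word GAAANNGAA was there at Psmb3 and Psmb4 alone (4.26%, against 0.706%), and neither is an immune subunit. This share rests on 2 genes, and the ribosomal protein genes came to 2.5%. Immune genes did not lack interferon-type words in their 300 bp windows. Psme1 held the IRF-type word in replicate 2. Psmb8 held TTCNNNGAA, the word searched for STAT factors, in both libraries, but in a footprint in replicate 1 only.

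The ARE-type word TGACNNNGC, the core of sites bound by NFE2L1 and its relatives, was in the 300 bp windows of 12 genes in replicate 1 (25.5%) and 11 in replicate 2 (23.4%), against 15.2% and 15.3% of all protein-coding genes with a promoter peak. In windows set by the 5-prime end the share was 12.8% in both libraries, against 13.7% in both, so the order turned round with the window. Of the core class, 5 of 14 genes held it: Psma1, Psma3, Psmb2, Psmb5 and Psmb6. It lay in a footprint of both libraries at 4 genes (8.51%, against 4.92%), namely Psmb5, Psmb6, Psmb3 in the further upstream peak (-846 bp), and the assembly chaperone gene Psmd9, where it overlapped a GGGCGG word. The word GATGGCG of the factor YY1 was in the windows of 9 and 8 genes (19.1% and 17.0%, against 8.21% and 8.60%). The ribosomal protein genes came to 27.5% in each library and the oxidative phosphorylation genes to 16.7% and 17.9%. In a footprint of both libraries the YY1 word lay at 2 of the 47 genes (4.26%, against 3.37%), a share near that of genes in general. The words searched for NF-kB, CTCF and ZNF143 or THAP11 were in 0 of the 47 windows, against 2.34%, 2.13% and 0.860% of the windows of all protein-coding genes. A matching word is a description of the letters and not a measured binding site.

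**Figure D3:**
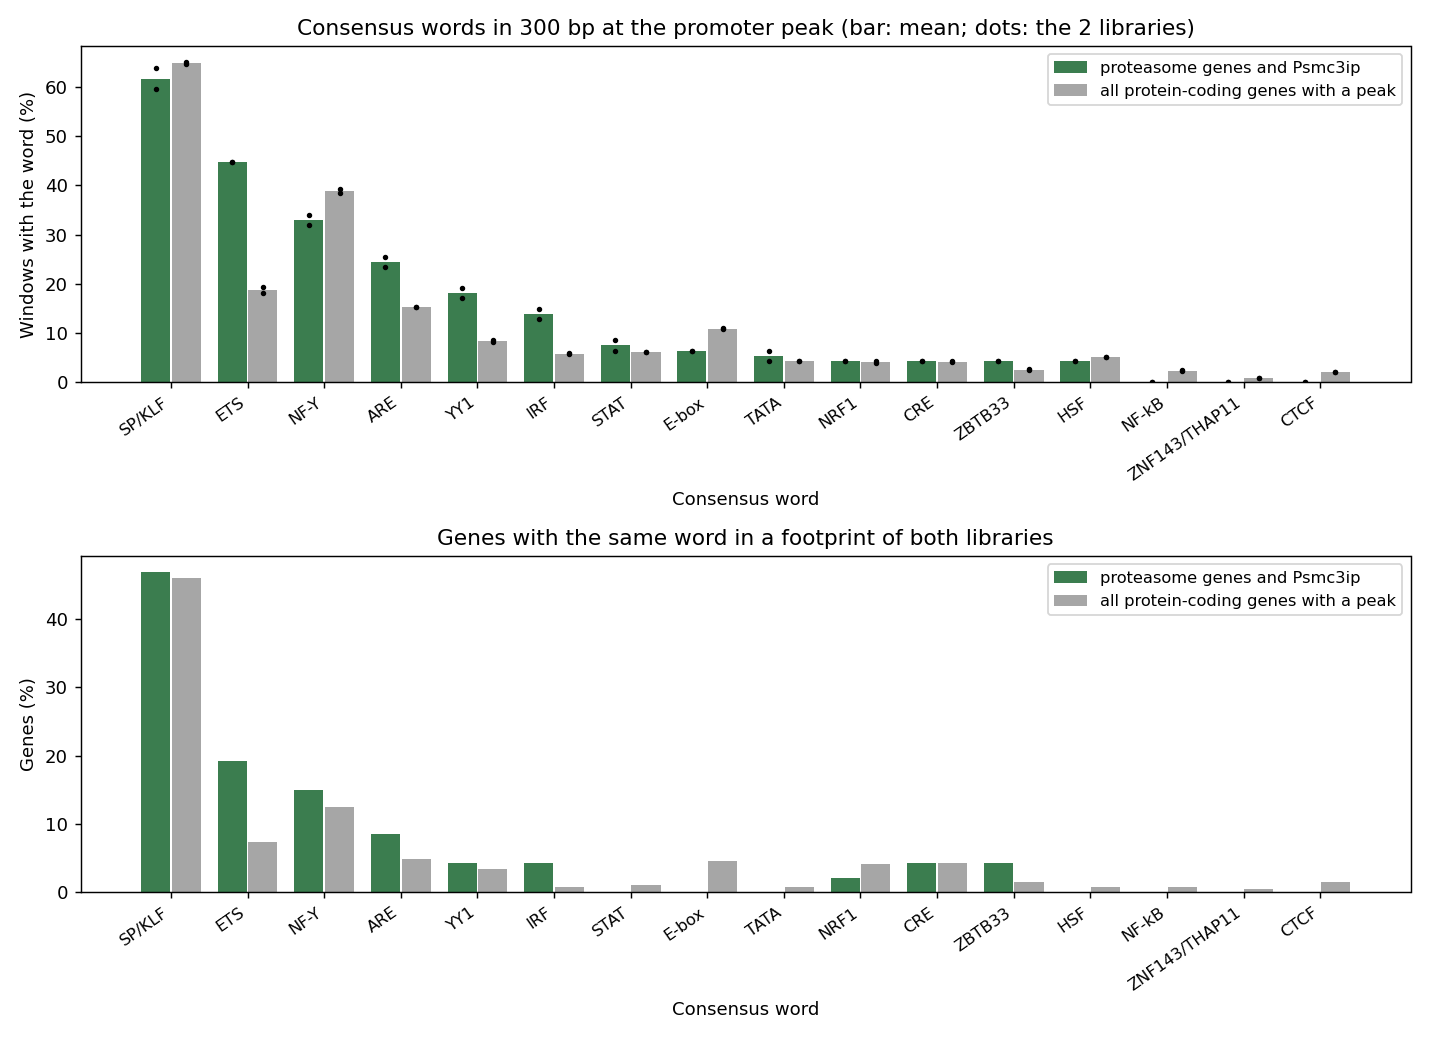
Percent of genes with each of the 16 consensus words, for the 47 genes with a promoter peak, Psmc3ip included (left bar of each pair), and all protein-coding genes with a promoter peak (right bar); the upper panel counts 300 bp windows (bar: mean, dots: the 2 libraries) and the lower panel counts genes with the same word in a footprint of both libraries. The ETS word is at 44.7% against 18.7% in the upper panel and at 19.1% against 7.40% in the lower panel.

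The 10 genes of assembly factors, other activators and the inhibitor were between 1.95 and 5.48 high in replicate 1 and between 1.47 and 3.56 in replicate 2. Psmd9, a chaperone of base assembly, had the highest values, 5.48 and 3.56. Psmg2, a chaperone of alpha-ring assembly, had the lowest, 1.95 and 1.47. Psme3, the nuclear activator subunit, had 5.06 and 2.93, and Psme4, a large activator known from spermatogenesis, had 3.89 and 2.23. Psmf1, the inhibitor, had 3.54 and 2.17. Psmd5, another chaperone of base assembly, had 3.60 and 2.80 at an alternative start, with the peak centre of replicate 2 lying 3838 bp inside the gene from its 5-prime end. Its sequence is shown for a palindrome built from overlapping TCTCGCGA words, the consensus of ZBTB33, which occurred in duplicate in footprints of both libraries, at -21 and -23 bp and again at -67 and -69 bp. A ZBTB33 word lay in a footprint of both libraries at Psmd5 and Psmb2 (4.26%, against 1.47% of all protein-coding genes). The share was higher in the ribosomal protein genes (12.5%) and the oxidative phosphorylation genes (5.13%), so the word is not particular to proteasome genes. Psmd5 lies at chr2:34870913-34871060 on the minus strand, and Psmd9, with its ARE-type word at -27 bp, at chr5:123228121-123228239 on the plus strand.
Psmd5: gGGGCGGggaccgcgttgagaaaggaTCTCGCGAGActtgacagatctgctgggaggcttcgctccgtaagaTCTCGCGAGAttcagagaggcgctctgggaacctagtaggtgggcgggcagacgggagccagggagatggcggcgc
Psmd9: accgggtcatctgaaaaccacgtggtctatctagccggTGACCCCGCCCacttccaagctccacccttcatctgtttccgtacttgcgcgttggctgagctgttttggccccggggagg

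The immune or testis class held genes with tall, low and no promoter peaks. Psmb9, an interferon-inducible cutting subunit, had heights of 4.96 and 2.97 (percentiles 79.7 and 70.2) in a peak shared with Tap1, the peptide transporter gene of antigen presentation. Psmb8, the second inducible cutting subunit of the same locus, had 3.44 and 1.74 (percentiles 57.0 and 38.6). Psmb10, the inducible cutting subunit encoded on another chromosome, had 2.57 and 1.72 (percentiles 41.9 and 38.1). That Psmb10 peak was intronic, near an alternative start, and replicate 1 had 5 promoter peaks at Psmb10 while replicate 2 had 1. Psme2, a subunit of the interferon-inducible activator ring, had 4.21 and 2.76, but this peak lay 537 bp and 527 bp from the Psme2 start and 58 bp and 68 bp from that of Rnf31, a ubiquitin ligase gene. The peak at the Psme2 start itself had 2.84 and 2.67. Psme1, the partner subunit in that ring, had the lowest promoter of the 47 genes, at 1.28 and 0.829 (percentiles 17.4 and 11.7). With only the annotated 5-prime ends as starts, the median percentile of the class was 21.2 in replicate 1 and 6.01 in replicate 2, in place of 29.6 and 24.9.

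Psma8, the testis-specific alpha subunit, had no base listed with a false discovery rate under 0.05 within 1000 bp of a start in either library. Psme2b, annotated as a second copy of Psme2 on chromosome 11, likewise had none, and is uncertain, since how reads of near-identical copies were assigned was not tested. Psmb11, the beta subunit of the thymus cortex, had no listed base in replicate 1 and 31 listed bp in replicate 2, with a lowest false discovery rate of 3.46e-02 and a height of 0.545 in the broader peak set. Over all protein-coding genes, 69.2% in replicate 1 and 66.1% in replicate 2 had at least 1 listed base near a start. Of genes known from germ cells, where Psma8 is used, 1 of 5 had a promoter peak in each library. Of genes known from thymus epithelium, where Psmb11 is used, 2 of 4 had one in each library, against 63.4% and 59.3% of all protein-coding genes.

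The Psmb8 and Psmb9 promoters are shown as the inducible cutting subunits with a consensus word in a footprint of both libraries within the tallest peak. Psmb8 lies at chr17:34197561-34197760 on the plus strand, with the cyclic AMP response element word TGACGTCA at -56 bp in capitals. That word was in footprints of both libraries at Psmb2 and Psmb8 (4.26%, against 4.22% of all protein-coding genes). Psmb9 lies at chr17:34187341-34187560 on the minus strand, with a GGGCGG word at -18 bp.
Psmb8: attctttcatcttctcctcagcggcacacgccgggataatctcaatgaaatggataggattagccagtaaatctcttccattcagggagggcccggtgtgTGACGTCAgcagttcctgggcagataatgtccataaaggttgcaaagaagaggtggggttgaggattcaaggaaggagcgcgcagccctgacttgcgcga
Psmb9: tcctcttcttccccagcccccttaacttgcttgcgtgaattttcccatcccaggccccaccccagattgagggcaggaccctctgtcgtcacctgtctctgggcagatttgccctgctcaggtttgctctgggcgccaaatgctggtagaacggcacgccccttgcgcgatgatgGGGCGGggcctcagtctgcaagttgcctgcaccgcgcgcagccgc

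The ratio of observed to expected CpG dinucleotides in the 300 bp windows had its lowest class median in the immune genes. The median was 0.577 and 0.637 in the 5 immune genes with a peak, 0.855 and 0.888 in the core, 0.818 and 0.841 in the regulatory class and 0.902 and 0.911 in assembly factors and activators, against 0.801 and 0.807 over all protein-coding genes with a promoter peak. The 5 immune genes lay between 0.546 and 0.718 in replicate 1 and between 0.577 and 0.741 in replicate 2. The core genes lay between 0.689 and 1.06 in replicate 1 and between 0.689 and 0.993 in replicate 2, so the classes overlapped. The lowest values of single genes were 0.527 and 0.494 in the assembly and activator class (Psmd10) and 0.549 in both libraries in the regulatory class (Psmd4), which in replicate 2 lay below every immune gene.

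At 12 of the 47 genes (25.5%) in each library, the tallest promoter peak also lay within 1000 bp of a start of another protein-coding gene. The background was 19.5% in replicate 1 and 20.4% in replicate 2, and the oxidative phosphorylation genes came to 39.7%. A peak of this kind cannot be assigned to either gene. In 10 of the 12 the genes were divergent, with starts pointing away from each other. The divergent partners were Ss18l1 for Psma7, Mrpl32 for Psma2, Tbp for Psmb1, Dnajc2 for Psmc2, Ftsj3 for Psmc5, Sirt3 for Psmd13, Atg4a for Psmd10, Cep76 for Psmg2, Tap1 for Psmb9 and Rnf31 for Psme2. Psmb1 and Tbp, the TATA-binding protein gene, had starts 137 bp apart, and the shared peak was centred 119 bp from the Psmb1 start and 18 bp from that of Tbp. At a second annotated Psmb1 start a further peak, centred 9 bp from it, had heights of 4.69 and 2.93. Psmc5 and Ftsj3, an rRNA-processing gene, had starts 75 bp apart. Psma4 shared its peak with AY074887 on the other strand and Psmg3 with Gm26938 on the same strand, both without divergence. Left without every peak near another coding start, 78.6% of core genes, 82.4% of regulatory genes and 37.5% of immune or testis genes still had a promoter peak. The share of all protein-coding genes under this rule is not given, so these values have no background.

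At least 1 footprint lay in a promoter peak of 47 of the 50 genes in each library, the same 47 that had a peak, against 62.9% of all protein-coding genes in replicate 1 and 58.2% in replicate 2. There were 262 footprints in replicate 1 and 226 in replicate 2 at the promoters of the 47 genes, 7 to 50 bp wide in replicate 1. The median per gene was 5 in both libraries, against 6 and 5 over all protein-coding genes with a promoter peak. By the mean of the libraries the most were at Psma7, with 12 and 10, in a promoter region with 5 peaks in each library. Psmg2 had 10 and 7, Psmg4 had 11 and 5, Psme2 had 10 and 6, and Psmb10 had 14, the most of replicate 1, and 2. The difference at Psmb10 went with its 5 peaks in replicate 1 and 1 in replicate 2.

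In replicate 1, 46.2% of the footprints of the 47 genes were centred within 100 bp upstream of the nearest start and 27.5% within 100 bp downstream, against 29.2% and 18.1% for all protein-coding genes. In replicate 2 the values were 49.6% and 25.7%, against 34.5% and 17.6%. Farther than that lay 26.3% in replicate 1 and 24.8% in replicate 2, against 52.8% and 47.9%. By class the farther share was 24.1% and 24.7% in the core, 17.3% and 18.5% in the regulatory class, and 32.3% and 30% in assembly factors and activators. In the immune or testis class it was 36.1% of 36 footprints and 43.75% of 16, the latter nearest to the value of all protein-coding genes. These include footprints of the Psme2 peak that lies near the start of Rnf31. Of the replicate 1 footprints, 58.0% were overlapped by a replicate 2 footprint, against 46.9% for all protein-coding genes. Of the replicate 2 footprints, 74.3% were overlapped by one of replicate 1, against 71.7%. Over the whole genome replicate 1 had 394531 footprints and replicate 2 had 241645, so the shares of the libraries differ with these totals.

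**Figure D4:**
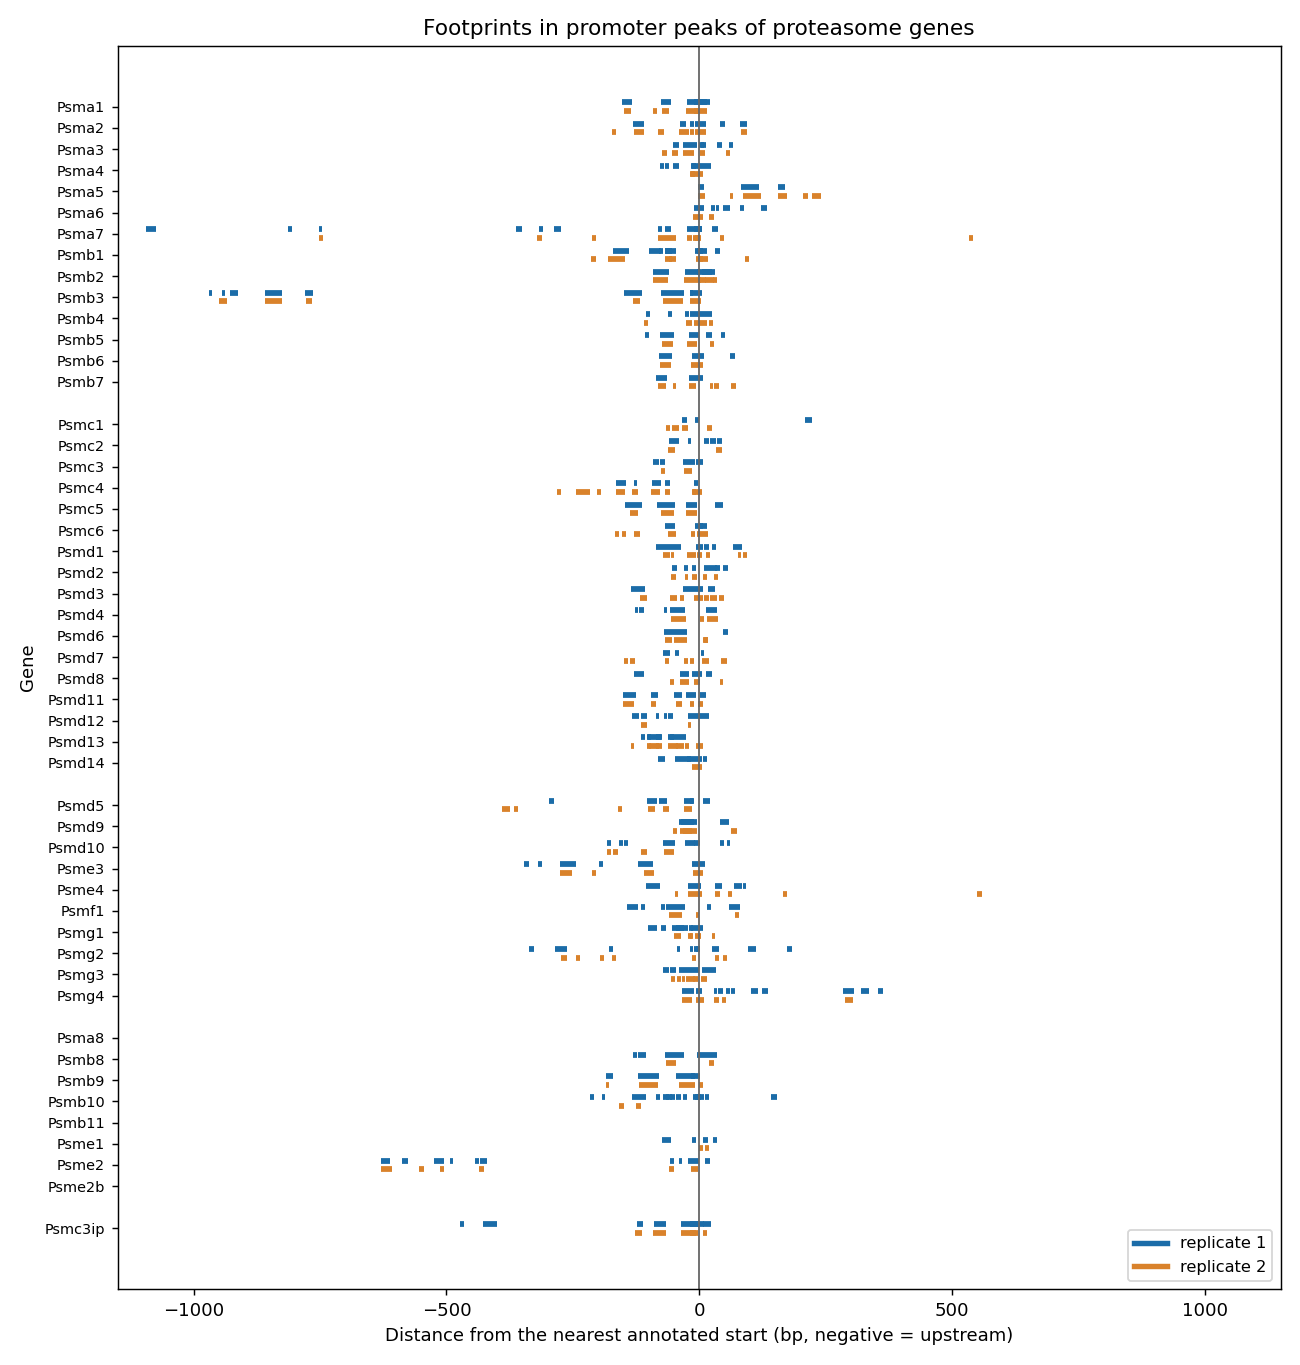
Footprints in promoter peaks (bars, drawn at their width) of each of the 50 genes by distance from the nearest annotated start in bp, for replicate 1 (upper bar of each pair) and replicate 2 (lower bar). Within 100 bp upstream lie 46.2% and 49.6% of them, while Psma7, Psmb3 and Psme2 also have footprints well upstream and Psma8, Psmb11 and Psme2b have none.

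The tallest promoter peaks of 46 of the 47 genes overlapped between replicate 1 and replicate 2 (97.9%, against 94.8% of all protein-coding genes with a peak in both). The exception was Psmg2, where a different promoter peak was the tallest in each library. Across the 46 genes whose tallest peaks overlapped, Spearman's rho of height between the libraries was 0.884, against 0.967 over all protein-coding genes chosen likewise. This is a description over genes that share libraries and not a test. Peak centres lay within 100 bp of a start at 42 genes in replicate 1 and 39 in replicate 2. They were upstream of the gene at 26 and 26, in a non-coding part of an exon at 16 and 18, in a coding exon at 1 and 1, and in an intron at 4 and 2. No such counts over all protein-coding genes are given, so these describe the 47 genes alone. Away from the promoter, a gene with its flanks of 20000 bp held a median of 3 peaks in both libraries, against 3 and 2 for all protein-coding genes.

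Most other listed genes of the pathway also had a promoter peak, apart from those of the interferon response. Over all protein-coding genes, 63.4% in replicate 1 and 59.3% in replicate 2 had one, with median percentiles of 21.2 and 15.7. Of 14 genes for proteasome-bound and proteasome-delivering factors, all 14 had a promoter peak in each library, with a median percentile of 72.1 in both. The tallest among them was Rad23b, a ubiquitin shuttle gene, with 8.32 and 6.09. All 6 genes that supply ubiquitin or extract tagged proteins had a peak, with medians of 75.7 and 76.7. All 6 genes of the NFE2L1 axis had one, with medians of 50.8 and 46.8. Nfe2l1 itself had heights of 7.99 and 5.18 (percentiles 97.6 and 96.7), and Nfe2l2, its relative in the oxidative stress response, had 1.80 and 1.07 (27.9 and 18.9). All 6 antigen-processing genes, Tap1 among them, had a peak, with medians of 58.1 and 49.6. Of 12 interferon-response genes, 5 had a peak in each library.

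Cell type markers were set beside the tissue label. Over all protein-coding genes, 63.4% in replicate 1 and 59.3% in replicate 2 had a promoter peak. Of the cortical neuron genes, 8 of 8 had one in replicate 1 and 7 of 8 in replicate 2, with median percentiles of 47.6 and 45.2. The counts were 2 and 2 of 6 for inhibitory neurons, 3 and 2 of 5 for astrocytes, 2 and 1 of 5 for oligodendrocytes, 1 and 0 of 4 for endothelium, and 0 and 0 of 7 for microglia and blood immune cells. These lists hold 4 to 8 genes each, so the counts do not decide the tissue. Irf8, a factor known from myeloid cells and listed among the interferon-response genes, had heights of 1.98 and 1.11. The part of immune cells in the Psmb8, Psmb9 and Psmb10 peaks was not tested.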

How the data were processed

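Peaks, footprints and false discovery rates per base were used as the authors deposited them for 2 DNase-seq libraries. Per the deposited descriptions, the files of a library were derived from its alignments alone, on mm10. The sources used here do not name the peak caller, thresholds or depth, so the precision of a single height is unknown. Each peak carries a signal, its height, deposited by the authors on a scale that is not stated. The q-values per base were deposited by the authors for bases under 0.05. Each footprint has only the value 0.01, taken here as the p-value cut-off of the authors. Chromosome names and lengths matched GRCm38.p6.

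Genes and starts came from GENCODE M21. Assignments were made with Python 3.11.15, numpy 2.4.6, pandas 2.3.3 and bedtools 2.31.1 and were tested on simulated data. A footprint counted if it overlapped a promoter peak by at least 1 bp. Neighbours were other protein-coding genes. With 1 group of 2 libraries, values are per library or mean ± SD over both, and no test was made. The members, classes, lists and words were chosen with earlier results of these data known. Named were the immune or testis genes, genes without a peak, the 5 highest, the 5 lowest, the 5 with the most footprints and those at a neighbour's start. Other named genes complete the ranges of their class or hold the words shown, and were chosen after their values were seen. Of 50 symbols, 42 matched the RefSeq promoter table (GRCm38.p6), and the others (Psma8, Psmb1, Psmb2, Psmb7, Psmc3, Psmd3, Psmd7 and Psmg2) have no sequence printed. The alternatives covered windows, starts, peak sets, footprint rules, class membership and each library left out.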

Additional observations from a re-analysis of the deposited data

How the results depend on the processing

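No paired analysis was possible because there was 1 group of 2 libraries and no contrast. Of 87 comparisons of a class value with an alternative, libraries left out not counted, 54 moved by no more than the SD between the libraries and 33 moved by more. That SD was 0 for the share with a promoter peak in the core, regulatory and immune or testis classes. Any change there counted as a move, so these counts do not measure robustness. Leaving out each library in turn gave class median percentiles of 65.6 to 69.6 for the core, 66.1 to 68.4 for the regulatory class and 24.9 to 29.6 for the immune or testis class. The share with a promoter peak fell to 92.9% in the core with the 5-prime end as the only start. In the immune or testis class it was 56.25% with 5-prime ends or with coding transcripts only, 68.75% in the broader peak set and 50% without Psme1 and Psme2. Without peaks near another coding start it was 78.6% (core), 82.4% (regulatory) and 37.5% (immune or testis). Shares of all protein-coding genes under these alternatives are not given.

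The immune or testis median percentile was 13.6 with 5-prime ends, 13.2 with coding transcripts, 32.7 in the broader set, 18.5 with the upper 50% of peaks, 0 without shared peaks, 19.98 without Psme1 and Psme2, and 33.8 with the nearest peak. For the core it was 63.7 with the upper 50% of peaks and 70.9 with the nearest peak. For the regulatory class these were 63.3 and 69.7, with 69.8 in the broader set and 63.8 without shared peaks. The median number of footprints in the broader set was 5.25 (core), 4.5 (regulatory) and 4.5 (immune or testis), and over all footprints within 1000 bp of a start it was 6.75, 7 and 5.5. In the regulatory class it was 4.5 with 2500 bp windows and 4.25 without shared peaks. Footprints shared between the libraries averaged 47.6% when at least 50% of each had to overlap. The CpG ratio in windows set by the 5-prime end was 0.819 in the core and 0.80 in the regulatory class. With a flank of 5000 bp the median number of peaks around a gene was 1. For these the cause was not tested. Of 48 such comparisons of the share of a word, 25 moved by no more than that SD and 23 by more, and the ARE-type word changed its order against all genes with the window. Here too an SD could be 0, as for the ETS word in the 300 bp windows. With n = 2 an SD rests on 2 values, and heights of single genes have no counting interval, since the depth is unknown.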
